A study of Mus musculus with 10 samples.

Results

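Immunoproteasome and peptide transporter genes were followed in sorted microglia and in whole brain tissue of the mouse. The genes were taken by name from the deposited count table. They are the catalytic immunosubunits Psmb8, Psmb9 and Psmb10, the standard subunits Psmb5, Psmb6 and Psmb7 whose places these take, the activator subunits Psme1 and Psme2, and the transporter chains Tap1 and Tap2. All 10 were found once each among the 56748 genes of the table, and all 10 passed the low-count filter. RNA-seq libraries from poly-A RNA were made from 5 samples of microglia, sorted as CD11b-positive cells at 400000 per sample, and from 5 samples of hemi brain, named bulk brain in what follows. All animals were young male C57BL/6 mice, and neither group carried a transgene or received a treatment that the labels name. The sort antigen CD11b is carried by other myeloid cells as well as microglia. The labels name no animal for a sample, so p-values speak of the spread among these libraries, some of which may be technical.

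The proteasome is a barrel-shaped protease that cuts ubiquitin-tagged proteins into peptides at the catalytic beta1, beta2 and beta5 subunits. In immune cells and under interferon, newly built barrels take up the immunosubunits beta1i (Psmb9), beta2i (Psmb10) and beta5i (Psmb8) instead, which shifts the peptides towards those that bind MHC class I molecules. The ring-shaped activator PA28, made of Psme1 and Psme2 products, opens the barrel, and the Tap1 and Tap2 proteins form the pump that carries the peptides into the endoplasmic reticulum. Microglia are the resident macrophages of the brain, and most other brain cells are known to hold little immunoproteasome at rest.

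Of the 10 genes, 7 were higher and 3 lower in microglia than in bulk brain by edgeR's quasi-likelihood fit with a threshold of 0.05 on the adjusted p. Across all 18969 genes tested, 37.2% were called higher and 43.9% lower, so that a call in either direction was common. The groups did not overlap for 8 of the 10 genes, against 34.2% of all genes that were higher without overlap and 40.5% that were lower without overlap. The 10 genes had a median log2 difference of 1.64, and all genes tested had -0.14. The 7 higher genes were the 3 immunosubunits, both activator subunits and both transporter chains, and the 3 lower genes were the standard catalytic subunits. Levels are given as CPM, read counts scaled by each library's size and composition.

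Libraries held 25087489 to 28514509 counts in microglia, against 25845049 to 34709215 in bulk brain. Bulk brain replicates 1 and 2 stood apart from replicates 3 to 5, and their levels of most proteasome genes were higher. The summed level of 11 other subunits of the 20S barrel was 533 to 569 CPM in microglia, against 1003 and 1382 CPM in bulk brain replicates 1 and 2 and 615 to 642 CPM in bulk brain replicates 3 to 5. Results are therefore also given against replicates 3 to 5 alone. In that comparison 7 genes were again higher and 3 lower, where 37.9% of all genes were called higher and 47.4% lower. The groups then overlapped for Psmb6 alone and not for the other 9, where 39.9% of all genes were higher without overlap and 44.3% lower without overlap. With bulk brain replicates 1 and 2 as the only tissue libraries, 6 were higher and 3 lower, where the shares over all genes were 37.1% and 44.9%. All 15 microglia markers were higher in the sorted cells, with summed levels of 42469 to 43972 CPM in microglia, against 313 to 450 CPM in bulk brain. All 10 neuron markers were lower (4.7 to 7.87 CPM in microglia, against 5753 to 6186 CPM in bulk brain), as were all 8 astrocyte markers (135 to 169 CPM in microglia, against 3492 to 4539 CPM in bulk brain) and all 8 oligodendrocyte markers (143 to 246 CPM in microglia, against 5790 to 7914 CPM in bulk brain). Of 8 endothelial markers 1 was higher and 6 lower (81.6 to 117 CPM in microglia, against 281 to 353 CPM in bulk brain). All 8 markers of border-associated macrophages were higher (499 to 647 CPM in microglia, against 11.1 to 12.9 CPM in bulk brain). Of 8 monocyte and neutrophil markers 3 were higher (31.9 to 41.4 CPM in microglia, against 0.44 to 1.13 CPM in bulk brain). In the fit to all libraries, which gave these marker counts, 37.2% of all genes were called higher and 43.9% lower. A listed marker that did not pass the low-count filter could not be called. The 10 lymphocyte markers summed to 3.24 to 5.57 CPM in microglia, against 4.3 to 5.57 CPM in bulk brain, and the 1 that passed the low-count filter was not called by edgeR, also at an unadjusted p under 0.05, but was lower by DESeq2. No listed marker had 0 counts over all microglia libraries, and the part of these other cells in the results was not tested.

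Promoter windows of the members, from 250 bases before to 50 bases after the annotated start, show how the genes sit in the genome and are printed for an immunosubunit from inside and one from outside the chromosome 17 cluster, a transporter chain, an activator subunit and a standard subunit. They come from RefSeq on build GRCm38.p6, which is older than the GRCm39 of the counts, and 8 of the 10 genes had an entry. The Psmb9 and Tap1 windows lie head to head and share 275 bases on opposite strands, so the Tap1 window shows both. Capitals mark matches to any of 5 motifs, searched on both strands: the interferon regulatory factor core GAAANNGAA, the STAT element TTCNNNGAA, an NF-kB pattern GGGANTTCC, the GC box GGGCGG and the CCAAT box. Among 32851 promoter windows of the same length, these occurred in 8.56%, 8.3%, 1.68%, 35.7% and 37.4%, in that order.
Tap1 promoter, chr17:34187306-34187605, plus strand: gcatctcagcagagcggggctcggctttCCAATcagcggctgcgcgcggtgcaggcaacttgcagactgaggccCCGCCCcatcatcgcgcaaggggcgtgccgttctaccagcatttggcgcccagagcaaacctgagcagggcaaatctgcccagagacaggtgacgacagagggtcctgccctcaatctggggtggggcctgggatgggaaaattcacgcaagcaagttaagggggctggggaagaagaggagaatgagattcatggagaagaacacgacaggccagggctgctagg
Psmb8 promoter, chr17:34197945-34198244, plus strand: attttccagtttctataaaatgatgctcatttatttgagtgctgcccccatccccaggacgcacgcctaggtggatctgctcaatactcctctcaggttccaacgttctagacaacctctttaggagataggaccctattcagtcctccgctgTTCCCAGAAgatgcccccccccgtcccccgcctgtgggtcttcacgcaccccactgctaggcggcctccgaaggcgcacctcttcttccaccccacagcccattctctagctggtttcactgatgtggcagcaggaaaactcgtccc
Psme1 promoter, chr14:55578244-55578543, plus strand: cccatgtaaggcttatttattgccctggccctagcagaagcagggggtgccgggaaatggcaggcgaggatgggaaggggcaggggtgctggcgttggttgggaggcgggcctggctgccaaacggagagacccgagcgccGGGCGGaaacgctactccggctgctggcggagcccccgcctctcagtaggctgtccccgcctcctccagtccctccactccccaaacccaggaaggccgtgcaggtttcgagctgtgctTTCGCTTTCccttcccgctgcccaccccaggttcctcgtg
Psmb10 promoter, chr8:105938343-105938642, minus strand: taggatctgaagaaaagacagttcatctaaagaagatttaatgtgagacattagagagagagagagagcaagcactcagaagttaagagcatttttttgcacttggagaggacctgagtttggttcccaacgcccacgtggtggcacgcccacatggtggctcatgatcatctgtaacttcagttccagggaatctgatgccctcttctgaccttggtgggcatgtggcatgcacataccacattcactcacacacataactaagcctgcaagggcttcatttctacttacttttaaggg
Psmb5 promoter, chr14:54617946-54618245, minus strand: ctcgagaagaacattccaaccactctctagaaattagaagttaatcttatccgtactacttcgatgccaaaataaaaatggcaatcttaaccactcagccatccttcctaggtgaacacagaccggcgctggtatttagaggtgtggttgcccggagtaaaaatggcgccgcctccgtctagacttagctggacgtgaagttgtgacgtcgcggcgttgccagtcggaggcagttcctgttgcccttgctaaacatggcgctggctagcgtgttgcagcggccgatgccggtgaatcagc
In the shared Psmb9 and Tap1 window a CCAAT box and a GC box were found. The Psmb8 window held 1 STAT element and the Psme1 window 1 interferon regulatory factor core and 1 GC box. Among the 8 genes with an entry, Psmb8 alone had the STAT element and Psme1 alone the interferon regulatory factor core. Of the windows not printed, both of Psme2 held GC boxes only, 2 in each, and that of Psmb6 held 1 GC box only. The Psmb10 and Psmb5 windows held none of the 5 patterns, which says only that these letters are not in these windows. No match in the printed windows overlapped another.

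Psmb8, which encodes the chymotrypsin-like immunosubunit beta5i (ENSMUSG00000024338, chromosome 17, 34416695 to 34420428, plus strand, GRCm39), was low in bulk brain and far higher in microglia. It stood at 52.7, 49.1, 50.2, 45.8 and 47.1 CPM in microglia replicates 1 to 5, against 2.05, 4.1, 0.873, 0.802 and 1.1 CPM in bulk brain replicates 1 to 5. No library of a group came near the other group, and the 2 highest bulk brain values were those of replicates 1 and 2. The log2 difference was 4.77 ± 0.42 (SE, n = 5 each, edgeR adjusted p = 6.1e-07), and 5.55 ± 0.12 against replicates 3 to 5 alone (edgeR adjusted p = 1.5e-13), which is a 46.9-fold difference in place of 27.2-fold.

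Psmb9, which encodes beta1i (ENSMUSG00000096727, chromosome 17, 34400961 to 34406738, minus strand), stood at 45.8, 47.2, 46.4, 44.1 and 44.2 CPM in microglia, against 1.78, 1.73, 1.09, 1.13 and 1.05 CPM in bulk brain. This was the largest difference among the 10 genes, with a log2 value of 5.06 ± 0.18 (SE, n = 5 each, edgeR adjusted p = 2.7e-10). Against bulk brain replicates 3 to 5 alone it was 5.23 ± 0.10, below that of Psmb8.

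Psmb10, which encodes beta2i (ENSMUSG00000031897, chromosome 8, 106662367 to 106665076, minus strand), did not share the near absence of the other immunosubunits from bulk brain. It stood at 59.9, 63.8, 64.5, 62.8 and 59.1 CPM in microglia, against 36.6, 66.6, 19.4, 18.6 and 18.1 CPM in bulk brain. Bulk brain replicate 2 was above every microglia library, so the groups overlapped, while replicates 3 to 5 were well below all of them. The log2 difference was 0.96 ± 0.34 (SE, n = 5 each, edgeR adjusted p = 0.02), and 1.58 ± 0.06 against replicates 3 to 5 alone (edgeR adjusted p = 6.3e-11). Against replicates 1 and 2 alone it was 0.20 and did not pass (edgeR adjusted p = 0.28). The call was also lost with library size as the only scaling (log2 difference 0.77, edgeR adjusted p = 0.053) and without bulk brain replicate 3, 4 or 5 (0.73 to 0.74, edgeR adjusted p = 0.051 to 0.054), and over all settings the adjusted p was 6.3e-11 to 0.28.

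**Figure D1:**
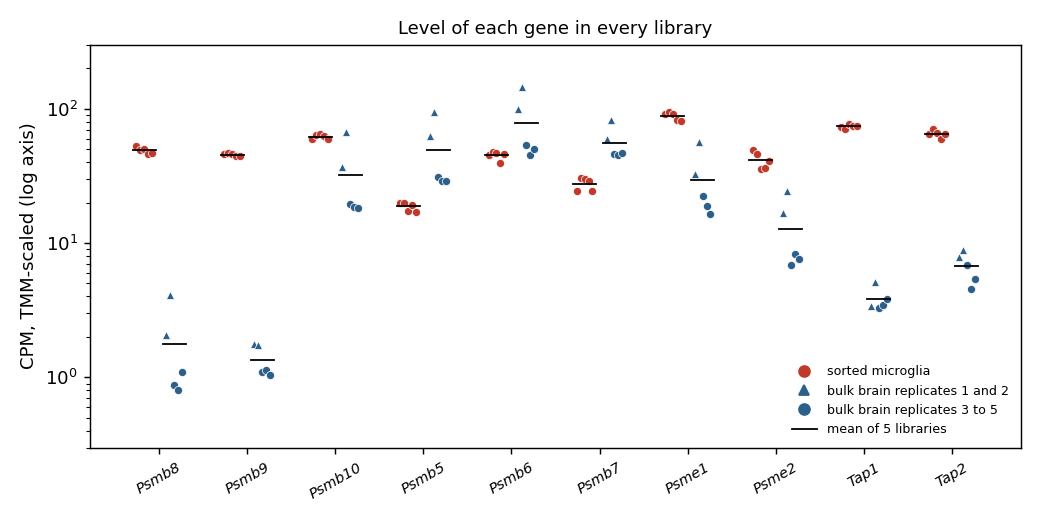
CPM (log axis) of each of the 10 genes in every library, microglia left and bulk brain right in each column, with the mean as a line. Psmb8, Psmb9, Tap1 and Tap2 are separated by wide gaps, Psmb10 in bulk brain replicate 2 reaches the microglial level, and triangles (bulk brain replicates 1 and 2) sit above replicates 3 to 5 for most genes.

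The standard catalytic subunits moved the other way, a direction that was not particular to them. The 11 other 20S subunit genes had a median log2 difference of -0.69, and -0.38 against bulk brain replicates 3 to 5 alone. All genes tested had a median of -0.14 in the fit to all libraries. Psmb5, which encodes beta5 (ENSMUSG00000022193, chromosome 14, 54851576 to 54855479, minus strand), stood at 19.9, 19.9, 17.4, 19.3 and 17.1 CPM in microglia, against 63.1, 94.7, 31, 29 and 29.1 CPM in bulk brain. All microglia libraries lay below all bulk brain libraries, with a log2 difference of -1.40 ± 0.33 (SE, n = 5 each, edgeR adjusted p = 0.0018) and -0.82 ± 0.08 against replicates 3 to 5 alone. Psmb7, which encodes beta2 (ENSMUSG00000026750, chromosome 2, 38478048 to 38534099, minus strand), stood at 24.5 to 30.7 CPM in microglia, against 45.4 to 82.1 CPM in bulk brain, again without overlap (log2 difference -1.01 ± 0.17 SE, n = 5 each, edgeR adjusted p = 0.00019; -0.89 against replicates 3 to 5 alone). It shares 6571 bases of its annotated span with Nek6 on the other strand, which was more abundant in microglia (3278 to 3614 counts) than in bulk brain (658 to 1044 counts).

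Psmb6, which encodes beta1 (ENSMUSG00000018286, chromosome 11, 70416193 to 70418684, plus strand), had the weakest fall. It stood at 45, 47.4, 46.9, 39.6 and 46.4 CPM in microglia, against 98.9, 145, 53.4, 45.4 and 50.2 CPM in bulk brain, and replicate 4 of bulk brain lay inside the microglial range. Its log2 difference was -0.80 ± 0.30 (SE, n = 5 each, edgeR adjusted p = 0.026) and -0.29 ± 0.07 against replicates 3 to 5 alone (edgeR adjusted p = 0.002). The call was lost without microglia replicate 1 or 4 (edgeR adjusted p = 0.05 and 0.06) and with limma-voom (adjusted p = 0.063), where all settings gave 6e-07 to 0.063.

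Because the subunits of a pair compete for the same place in the barrel, their ratio within a library was compared as well, which does not depend on how libraries are scaled. The ratio of Psmb8 to Psmb5 differed most. Its log2 value, from counts plus 0.5, was 1.41, 1.31, 1.52, 1.24 and 1.46 in microglia, against -4.93, -4.53, -5.12, -5.15 and -4.71 in bulk brain, a difference of 6.28 ± 0.13 (SE, n = 5 each) or 77.5-fold. The exact two-sided permutation test gave p = 0.0079 (adjusted p = 0.011 over 8 ratios and differences of ratios), and this p is the smallest that 5 against 5 can give. The ratio of Psmb9 to Psmb6 differed by 5.74 ± 0.18 (SE, n = 5 each, exact permutation p = 0.0079, adjusted p = 0.011), with -0.07 to 0.16 in microglia, against -6.37 to -5.31 in bulk brain. The ratio of Psmb10 to Psmb7 differed by 2.15 ± 0.21 (SE, n = 5 each, exact permutation p = 0.0079, adjusted p = 0.011), with 1.06 to 1.29 in microglia, against -1.37 to -0.30 in bulk brain, so here too the groups did not overlap. Unlike the level of Psmb10, its ratio to Psmb7 was thus higher in every microglia library.

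The shift was smaller at beta2 than at the other places. The change of the Psmb8 to Psmb5 ratio exceeded that of Psmb10 to Psmb7 by 4.13 ± 0.17, and the change of the Psmb9 to Psmb6 ratio exceeded it by 3.59 ± 0.38 (SE, n = 5 each, exact permutation p = 0.0079 and adjusted p = 0.011 for both). The beta5 and beta1 shifts differed by 0.53 ± 0.30 (SE, n = 5 each, exact permutation p = 0.13, adjusted p = 0.15), a difference that was 0.87 against bulk brain replicates 3 to 5 alone (exact permutation p = 0.036, the smallest that 5 against 3 can give). These differences of shifts were chosen after the ratios had been seen.

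**Figure D2:**
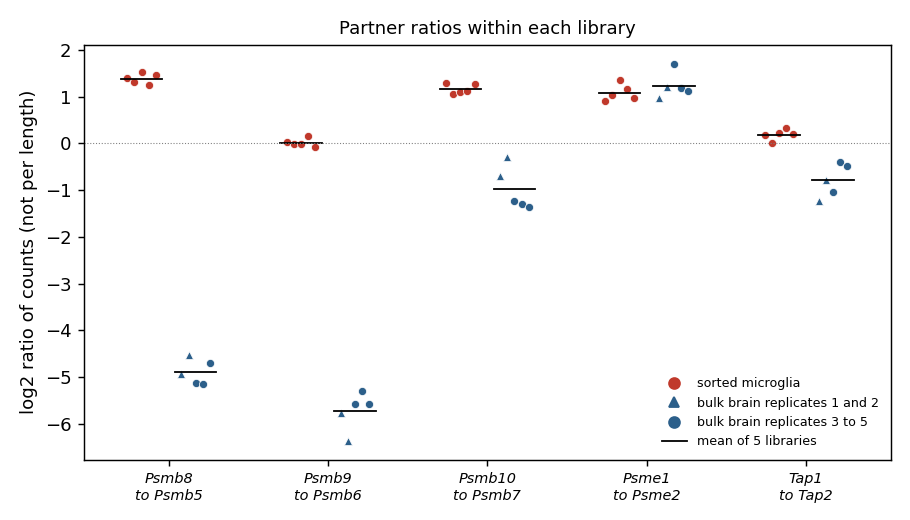
Log2 ratio of the counts of 5 gene pairs in every library, microglia left and bulk brain right, with the mean of 5 libraries as a line. The groups are apart for the 3 catalytic pairs and for Tap1 to Tap2, and they overlap for Psme1 to Psme2.

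Per length, the immunosubunits held a far larger share of the catalytic transcripts in microglia. With counts divided by the deposited gene length, Psmb8 made up 41.1% ± 1.91 of the beta5 pair in microglia, against 0.893% ± 0.174 in bulk brain (SD, n = 5 each). Psmb9 made up 34.1% ± 1.34 of the beta1 pair in microglia, against 0.974% ± 0.238 in bulk brain. Psmb10 made up 81.8% ± 1.06 of the beta2 pair in microglia, against 50.4% ± 7.9 in bulk brain, where replicates 1 and 2 had 55.2% and 62% and replicates 3 to 5 had 43.7% to 45.9%. Over the 3 pairs together, the share was 53.5% to 55.1% in microglia, against 13.4% to 16.5% in bulk brain. The catalytic sum of all 6 genes was 112 to 121 CPM per kb in microglia, against 81.2 to 247 CPM per kb in bulk brain, and 81.2 to 88.4 CPM per kb in replicates 3 to 5. The deposited lengths of Psmb8 and Psmb9 (3381 and 3660 bases) are long beside their principal transcripts (1628 and 1352 bases, GENCODE vM21). So are those of the standard subunits Psmb6 and Psmb7 (1872 and 3421 bases, against 798 and 1160 bases). The lengths differ less for Psmb10 (1705 against 1311 bases) and not for Psmb5 (899 bases). The change of length can therefore move a share either way. With principal transcript lengths for all genes the shares in microglia were 59.1% for Psmb8, 37.4% for Psmb9 and 66.5% for Psmb10, against 1.84%, 1.12% and 31.3% in bulk brain. Psmb10 was the one immunosubunit that formed a large part of its pair in bulk brain under both lengths.

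**Figure D3:**
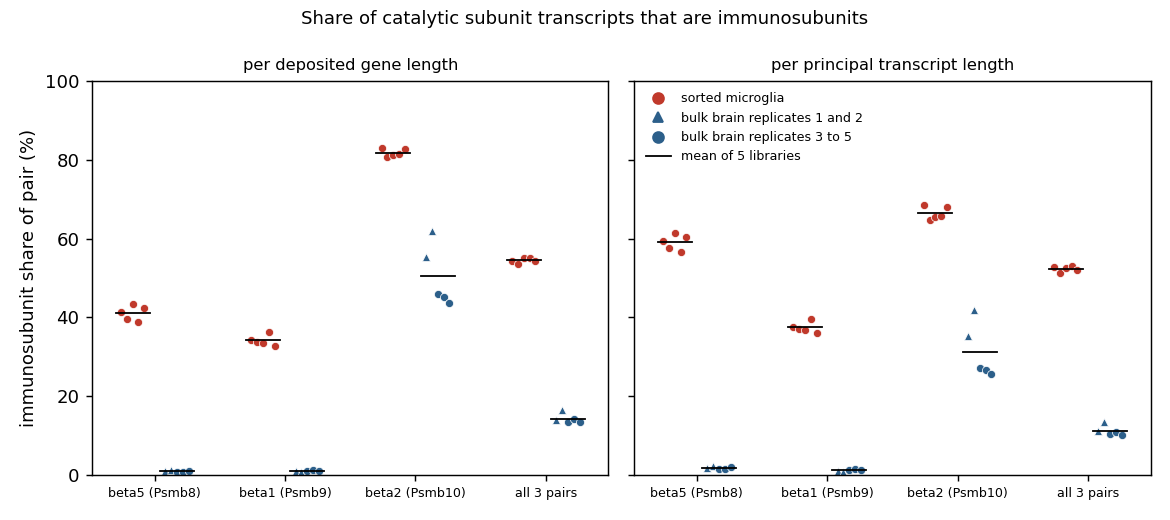
Share of each catalytic pair's transcripts, per length, that came from the immunosubunit (percent) in every library, with deposited gene lengths (left panel) and principal transcript lengths (right panel). Microglia points lie above bulk brain points for every pair, and the bulk brain share is near 0 for beta5 and beta1 but not for beta2.

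Psme1, which encodes the alpha subunit of PA28 (ENSMUSG00000022216, chromosome 14, 55815580 to 55818986, plus strand), stood at 91.8, 94.4, 90.9, 81.8 and 80.4 CPM in microglia, against 32.9, 57, 22.3, 18.8 and 16.5 CPM in bulk brain. Every microglia library was above every bulk brain library, with a log2 difference of 1.57 ± 0.30 (SE, n = 5 each, edgeR adjusted p = 0.00043) and 2.04 ± 0.09 against replicates 3 to 5 alone. Psme2, which encodes the beta subunit (ENSMUSG00000079197, chromosome 14, 55824898 to 55828570, minus strand, 5911 bases from Psme1), stood at 48.9, 46.3, 35.3, 36.4 and 40.9 CPM in microglia, against 16.8, 24.5, 6.81, 8.29 and 7.6 CPM in bulk brain. The groups did not overlap (log2 difference 1.70 ± 0.34 SE, n = 5 each, edgeR adjusted p = 0.00062; 2.30 against replicates 3 to 5 alone), and the microglia libraries were spread more widely around their mean than those of Psme1.

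Counts of Psme2 cannot be read without those of Psme2b, a near-identical copy on chromosome 11 (48836181 to 48837017). Over 794 aligned bases the Psme2 and Psme2b transcripts of GENCODE vM21 were 99.4% identical, and how the authors treated reads that map to several places is not given in the sources used here. Psme2b had 1262, 1393, 1700, 1687 and 1227 counts in microglia, against 277, 509, 196, 116 and 265 counts in bulk brain, where Psme2 had 1231, 1195, 916, 914 and 982 counts in microglia, against 613, 850, 187, 279 and 276 counts in bulk brain. In microglia replicates 3 and 4, with the fewest Psme2 counts, had the most Psme2b counts. Microglia replicate 5 had the next fewest Psme2 counts (982) but also the fewest Psme2b counts (1227). The sum of both was 99.2 ± 4.28 CPM in microglia, against 20.8 ± 11.4 CPM in bulk brain (SD, n = 5 each). The coefficient of variation in microglia was 4.31% for the sum, 14.4% for Psme2 and 14.1% for Psme2b. Psme2b took 58% ± 6.59 of the sum in microglia, against 39.6% ± 10 in bulk brain (SD, n = 5 each, p = 0.016 by a two-sided exact permutation test). The groups overlapped, at 50.6% to 65% in microglia, against 29.4% to 51.2% in bulk brain. This comparison was not among the planned ones, and its p was not adjusted.

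The ratio of Psme1 to Psme2 did not differ detectably, with a log2 difference of -0.15 ± 0.15 (SE, n = 5 each, exact permutation p = 0.37, adjusted p = 0.37). The groups overlapped, at 0.91 to 1.36 in microglia, against 0.97 to 1.71 in bulk brain. With Psme2 and Psme2b summed, an alternative added after seeing the data, the log2 ratio was -0.18 ± 0.10 in microglia, against 0.50 ± 0.22 in bulk brain (SD, n = 5 each), a difference of -0.67 (exact permutation p = 0.0079). Whether the balance of the PA28 transcripts differed thus depends on how the copy is counted.

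**Figure D4:**
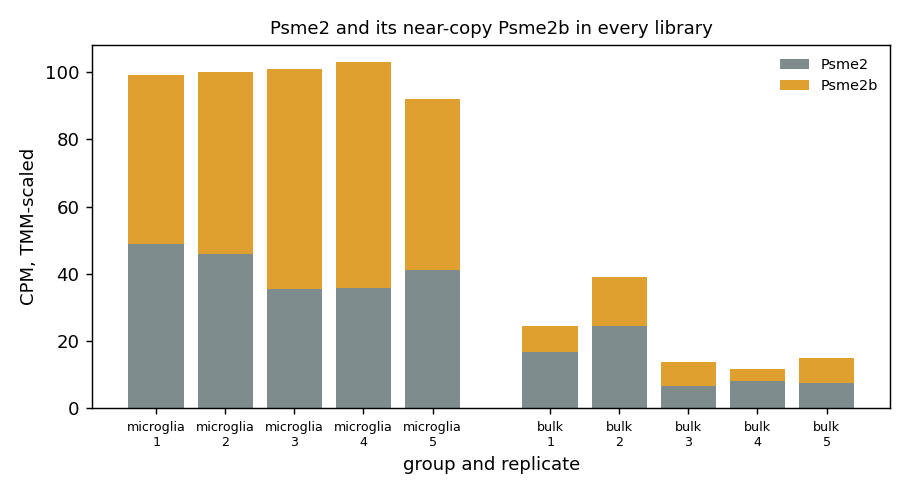
CPM of Psme2 (lower part of each bar) and of its near-copy Psme2b (upper part) in every library, microglia left and bulk brain right. The height of the microglia bars varies little, between 92.1 and 103 CPM, while the split between the genes differs between libraries.

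Tap1, which encodes one chain of the peptide pump (ENSMUSG00000037321, chromosome 17, 34406527 to 34416199, plus strand), stood at 73.4, 70.7, 76.5, 74.9 and 74.5 CPM in microglia, against 3.37, 5.14, 3.31, 3.47 and 3.85 CPM in bulk brain. The groups were far apart, and bulk brain replicates 1 and 2 were only partly above the rest. The log2 difference was 4.27 ± 0.14 (SE, n = 5 each, edgeR adjusted p = 1.3e-10) and 4.22 ± 0.09 against replicates 3 to 5 alone. Tap2, which encodes the other chain (ENSMUSG00000024339, chromosome 17, 34422501 to 34435295, plus strand), stood at 64.7, 70.2, 65.6, 59.8 and 64.4 CPM in microglia, against 7.91, 8.8, 6.84, 4.54 and 5.37 CPM in bulk brain. Its log2 difference was 3.28 ± 0.18 (SE, n = 5 each, edgeR adjusted p = 8.5e-09), and every microglia library again lay above every bulk brain library.

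The transporter chains did not rise to the same degree. The log2 ratio of Tap1 to Tap2 was 0.01 to 0.33 in microglia, against -1.23 to -0.39 in bulk brain, a difference of 0.97 ± 0.17 (SE, n = 5 each, exact permutation p = 0.0079, adjusted p = 0.011). Per kb of deposited length, Tap1 stood at 13.5 ± 0.393 and Tap2 at 17.2 ± 0.978 CPM per kb in microglia, and in bulk brain at 0.699 ± 0.139 and 1.77 ± 0.465 CPM per kb (SD, n = 5 each).

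Psmb9, Tap1, Psmb8 and Tap2 lie in this order within 34335 bases of chromosome 17, in the MHC region. Psmb9 and Tap1 point away from each other and share 212 bases at their starts, and 495 bases separate Tap1 from Psmb8. The strand setting of the counts is unknown, so reads in the shared stretch of Psmb9 and Tap1 cannot be told apart. The other 2 genes annotated in this stretch were noncoding: Gm20496 had 0 counts in all libraries, and Gm15821, which overlaps Tap2 on the other strand, had 31 to 65 counts in microglia, against 0 to 14 in bulk brain. The 4 clustered members had the 4 largest log2 differences of the 10, from 3.28 to 5.06, while Psmb10 on chromosome 8 and Psme1 and Psme2 on chromosome 14 had 0.96 to 1.70.

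Bulk brain contains microglia, so the bulk level was set beside that of microglia markers. Fewer cells of a type and less RNA per cell cannot be told apart in such tissue. Across 15 microglia markers the bulk brain mean was 0.533% to 2.26% of the microglial mean (median 0.84%), with the microglial transcription factor gene Sall1 highest. Psmb9 stood at 2.98%, Psmb8 at 3.65%, Tap1 at 5.17% and Tap2 at 10.3%, and Psme2, Psme1 and Psmb10 at 30.8%, 33.6% and 51.4%. Against bulk brain replicates 3 to 5 alone the median marker stood at 0.667%, with Sall1 at 2.54% and the other 14 at 0.526% to 1.01%. Psmb8 (1.89%) and Psmb9 (2.39%) then lay above those 14 and below Sall1. Tap1 (4.79%), Tap2 (8.6%), Psme2 (18.2%), Psme1 (21.9%) and Psmb10 (30.1%) lay above all 15.

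The genes whose pattern was most like that of a member were sought among 15029 coding genes tested. Likeness was the root mean square difference in log2 CPM, with 0.5 CPM added, across the 10 libraries after centring each gene. The added 0.5 CPM narrows the differences of genes with a low bulk brain level, such as Psmb8 and Psmb9. For Psmb8 the most alike genes were the cathepsin genes Ctsd and Ctsz and the transcription factor gene Batf3 (0.15, 0.18 and 0.19). For Psmb9 they were Arhgap25, the gamma-glutamyltransferase gene Ggt5 and the interleukin 4 receptor gene Il4ra (0.12, 0.12 and 0.13). For Tap1 they were the transcription factor gene Pou2f2, the signalling adaptor gene Tifa and the ETS factor gene Elk3 (0.11, 0.12 and 0.13). For Psmb10 they were the coiled-coil gene Ccdc12, the proton pump gene Atp6v0b and the ribosomal fusion gene Fau (0.081, 0.13 and 0.13). Fau stood at 237 ± 8.39 CPM in microglia, against 143 ± 93.8 CPM in bulk brain (SD, n = 5 each). Psmb9 was the gene ranked 30 in likeness to Psmb8, and Psmb10 the one ranked 2835.

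Genes of the class I loading list were higher in microglia in 11 of 11 cases, where 37.2% of all genes were higher. The list holds genes of class I molecules themselves (B2m, H2-K1, H2-D1 and H2-T23) and the peptidase genes Erap1 and Lnpep beside loading factors. Its median log2 difference was 3.20, against -0.14 over all genes tested. The class I heavy chain gene H2-K1 had the largest, at 668 ± 49.7 CPM in microglia, against 27.7 ± 9.74 CPM in bulk brain (SD, n = 5 each, log2 difference 4.59, edgeR adjusted p = 4.5e-09), and it has close paralogs that may share its reads. The light chain gene B2m stood at 1179 ± 71.4 CPM in microglia, against 59.7 ± 12.3 CPM in bulk brain, and Tapbp, which encodes the tapasin bridge between pump and class I molecule, at 223 ± 7.26 CPM in microglia, against 24.2 ± 7.26 CPM in bulk brain. The trimming peptidase gene Erap1 stood at 128 ± 6.77 CPM in microglia, against 10.8 ± 2.38 CPM in bulk brain. The chaperone gene Canx, which is used by all cells, had the smallest difference at 1.00.

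Of 18 genes that regulate the pathway, 17 were higher and 1 was lower (median log2 difference 2.39). When the tissue libraries were replicates 3 to 5 only, 16 were higher and 1 lower. The shares over all genes were 37.2% higher and 43.9% lower, and 37.9% and 47.4% with those replicates only. Irf8, a transcription factor of macrophages, had the largest difference at 7.08 (627 ± 24.1 CPM in microglia, against 4.61 ± 1.15 CPM in bulk brain, SD, n = 5 each). Nlrc5, the activator of class I genes, stood at 23.6 ± 5.51 CPM in microglia, against 0.922 ± 0.453 CPM in bulk brain. Irf1, which is known to induce immunosubunit genes, stood at 85.7 ± 4.88 CPM in microglia, against 4.37 ± 0.591 CPM in bulk brain. The interferon gamma receptor gene Ifngr1 stood at 758 ± 27.1 CPM in microglia, against 16 ± 1.76 CPM in bulk brain. Rfxap, a subunit of the RFX complex at MHC promoters, was lower, at 14.9 ± 2.61 CPM in microglia, against 28.8 ± 7.99 CPM in bulk brain (log2 difference -0.94, edgeR adjusted p = 0.00085).

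No other listed gene of the 20S barrel or of its 19S cap was called higher by edgeR. Of 11 other 20S subunit genes, 0 were higher, 8 were lower and 3 did not pass (median -0.69), from Psma1 at -0.06 to Psmb4 at -1.04. In the regulatory 19S cap, 0 of 18 were higher, 10 were lower and 8 did not pass (median -0.46), from Psmd11 at 0.05 to Psmc5 at -1.78. Over all genes tested, 37.2% were called higher and 43.9% lower, with a median of -0.14, so a lower call was common. Against bulk brain replicates 3 to 5 alone the medians of these 20S and 19S lists were -0.38 and -0.31, with 8 and 13 genes lower. In that comparison 37.9% of all genes were called higher and 47.4% lower. The 0 higher genes of both lists were also 0 at an unadjusted p under 0.05, by DESeq2 and by limma-voom. DESeq2 called 10 and 15 lower and limma-voom 6 and 10. Without any single microglia replicate, 6 or 7 of the 20S genes and 8 or 9 of the 19S genes were lower. The shares over all genes are not given here for DESeq2, limma-voom and the fits without single replicates. Of 9 tested genes for other activators and assembly, 2 were higher, 2 lower and 5 not called, and 5 were higher and 2 lower with replicates 3 to 5 as the only tissue libraries. The lower count was 1 without microglia replicate 3, 4 or 5 and with upper quartile scaling. In the fit to all libraries the higher ones were Akirin2, which brings proteasomes into the nucleus (log2 difference 1.42), and Psme4, the PA200 activator (1.00). Psme3, the nuclear relative of the PA28 subunits, was lower at -0.55 ± 0.08 (SE, n = 5 each, edgeR adjusted p = 4e-05), opposite in direction to Psme1 and Psme2. Pomp, the chaperone that assembles the barrel, stood at 70.7 ± 3.53 CPM in microglia, against 86.9 ± 48.7 CPM in bulk brain and was not called (log2 difference -0.30, edgeR adjusted p = 0.37). Against bulk brain replicates 3 to 5 alone its direction turned and it was called higher (log2 difference 0.21, edgeR adjusted p = 0.0041).

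**Figure D5:**
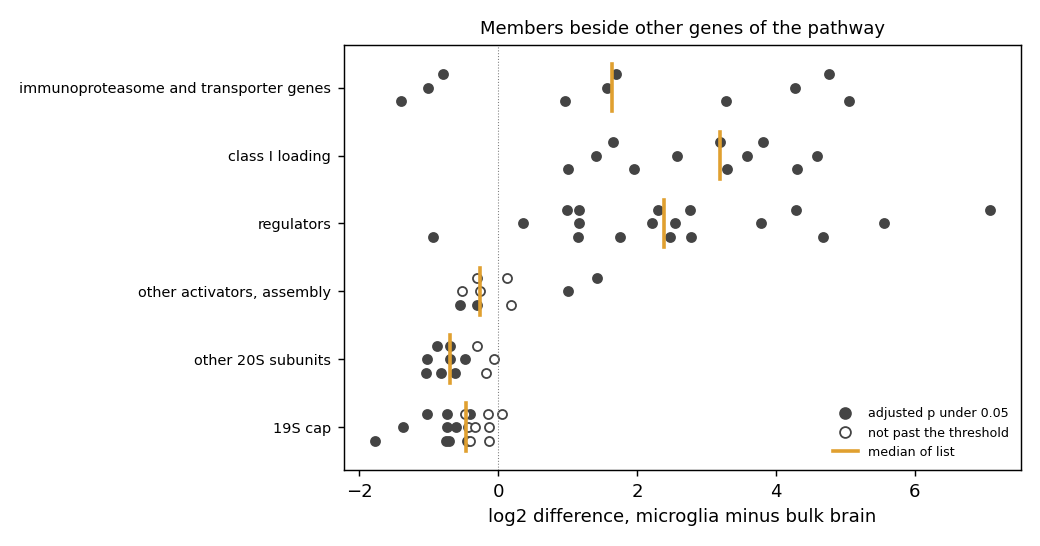
Log2 difference (microglia minus bulk brain) of the 10 genes and of each tested gene in 5 other lists, filled where the edgeR adjusted p was under 0.05, with the list median as a bar. The genes of the class I loading list and nearly all regulators lie right of 0. The other 20S and the 19S cap genes lie mostly left of 0, and the 10 genes span both sides.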

How the data were processed

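RNA-seq libraries of 5 microglia and 5 bulk brain samples were analysed. Per the labels' protocols, RNA was taken up in Qiazol, selected on poly-T beads and primed with random hexamers. Per the submitters' processing notes, CASAVA, HISAT2 2.2.1, featureCounts 2.0 and build GRCm39 were used. Which strand was counted, what was done with multi-mapped reads and which annotation release was used is not stated in those notes. Raw, unnormalized counts per gene were deposited, beside a length for each gene, and the 10 columns were matched to samples by the column names in the labels.

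Genes were filtered with filterByExpr (18969 kept), scaled by TMM and tested in R 4.3.3 with edgeR 4.0.16 (glmQLFit and glmQLFTest; limma 3.58.1 for voom), fitting group alone, with Benjamini-Hochberg adjustment over all genes and a threshold of 0.05. SE is the log2 difference divided by the root of F. Ratios were compared by exact two-sided permutation over 252 splits (SciPy 1.17.1). A count of 0 allows up to 3 counts, which is 0.0821 CPM in the deepest library, for counting error only. The labels do not say whether samples with the same replicate number share an animal, so the main fit did not pair them. The members and lists were chosen with earlier results of these data known. Named genes were all members, the highest and lowest of each list, neighbours and the 3 most alike genes; other list genes were named after their values were seen.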

Additional observations from a re-analysis of the deposited data

How the results depend on the processing

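Members called higher in microglia numbered 6 or 7 and those called lower 2 or 3 under other scalings (median of ratios, library size, upper quartile), other filters, DESeq2 1.42.0, limma-voom, the replicate block and without single replicates. Of 200 member values under alternatives, 192 kept direction and side of the threshold and 0 reversed; the exceptions were Psmb10 and Psmb6. Of 200 list counts, 193 stayed within 1.5 times. Some of these did not vary in any setting, such as the class I loading list with 11 higher and 0 lower. The lower count ranged from 6 to 11 for the other 20S subunits and from 8 to 17 for the 19S cap. The share of all genes called lower is not given here for each of these settings. With bulk brain replicates 1 and 2 alone, 17 genes of the 19S cap were lower in place of 10 and 7 of other activators in place of 2. With the replicate block the ratio differences had the same values, 6.28 (Psmb8 to Psmb5), 5.74 (Psmb9 to Psmb6), 2.15 (Psmb10 to Psmb7) and 0.97 (Tap1 to Tap2), at p = 0.062 by exact sign flips, the smallest that 5 pairs can give. The Psme1 to Psme2 difference of -0.15 had the same p = 0.062 by exact sign flips, so this test does not set it apart from the others. By the labels these samples share only a number, and whether they share an animal is not known. Correlations of same-numbered deviations were -0.022 to 0.010. They cannot decide this, since bulk brain replicates 1 and 2 stood apart from the other bulk brain replicates. The block gave 7 members higher and 3 lower. Against bulk brain replicates 1 and 2 alone the differences of the catalytic and Tap1 to Tap2 ratios were 6.12, 6.10, 1.67 and 1.19 at exact permutation p = 0.095, again the smallest possible. Without single replicates they ranged from 6.21 to 6.37, 5.58 to 5.85, 2.05 to 2.32 and 0.86 to 1.07. The Psme1 to Psme2 difference ranged from -0.22 to -0.03 there and was -0.67 with Psme2b added.

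Immunosubunit shares depended on the length used. With raw counts they were 72.4% (beta5), 50.3% (beta1), 69.2% (beta2) and 63.1% (all 3 pairs) in microglia, against 3.28%, 1.88% and 33.9% for the pairs in bulk brain. With principal transcript lengths, an alternative added after seeing the data, they were 59.1%, 37.4%, 66.5% and 52.4% in microglia, against 1.84% (beta5), 31.3% (beta2) and 11.1% (all 3 pairs) in bulk brain.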
